A study of Rattus norvegicus with 9 samples.

Results

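The 6 genes described here encode the enzymes that hydroxylate or epoxidise arachidonic acid in the rat kidney, and the enzyme that degrades the epoxides: Cyp4a1, Cyp4a2, Cyp4a3, Cyp4a8, Cyp2c23 and Ephx2. They were chosen by name, and all 6 were found among the 18420 genes of the deposited table. Messenger RNA had been sequenced from the kidney cortex of diabetic rats of the strain ZDF fa/fa, obese animals that lack a working leptin receptor and develop type 2 diabetes. All 9 libraries analysed here carry the treatment name Medical Bypass, which the study's title sets against gastric bypass, and they form 1 group of 9 replicates. Its drugs, doses and duration, and the rats' age and sex, are not in the labels. Without an operated or untreated group among these libraries, no effect of treatment or of diabetes was estimated, and each comparison below is between replicates. Whether each replicate is its own animal is also not stated, so p-values hold only across these 9 libraries, whose differences could be technical. Values are read counts divided by the authors' size factor for the library, called normalised counts here. They are not corrected for transcript length, so they are compared between replicates of a gene and not between genes.

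Cyp4a enzymes place a hydroxyl group at the far end of fatty acids. From arachidonic acid they make 20-hydroxyeicosatetraenoic acid (20-HETE), which constricts small renal vessels and lowers sodium reabsorption in the tubule. Cyp2c23 is the main arachidonate epoxygenase of the rat kidney and makes epoxyeicosatrienoic acids, which relax vessels and also favour sodium excretion. Ephx2, the soluble epoxide hydrolase, converts these epoxides to the less active diols. In the rat kidney these enzymes are found mainly in the proximal tubule, and several Cyp4a genes are textbook targets of the fatty acid receptor PPAR alpha.

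The 4 Cyp4a genes lie together on chromosome 5 in the RefSeq annotation of the assembly GRCr8, in the order Cyp4a8, Cyp4a2, Cyp4a3 and Cyp4a1, with Cyp4a2l1 and several Cyp4a pseudogenes between them. Cyp2c23 is on chromosome 1 and Ephx2 on chromosome 15. The submitters' processing notes name another build, Rnor_5.0, so positions are given only for the RefSeq sequences. RefSeq promoter sequences matched 4 of the 6 genes. The 250 bases upstream of the start are shown for 3 Cyp4a genes, because Cyp4a2 and Cyp4a3 are near copies there and Cyp4a8, the gene that varied most between replicates, is not. All 3 are on the minus strand of GRCr8: Cyp4a2 at chr5:134170909-134171158, Cyp4a3 at chr5:134352237-134352486 and Cyp4a8 at chr5:133970227-133970476. They read from 5′ to 3′ towards the start site, and capitals mark AGGTCA, the half-site bound by many nuclear receptors.
Cyp4a2: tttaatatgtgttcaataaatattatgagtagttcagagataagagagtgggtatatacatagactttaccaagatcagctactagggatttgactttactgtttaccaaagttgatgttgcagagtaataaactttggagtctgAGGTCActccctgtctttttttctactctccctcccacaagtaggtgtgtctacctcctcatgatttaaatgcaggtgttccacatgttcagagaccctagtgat
Cyp4a3: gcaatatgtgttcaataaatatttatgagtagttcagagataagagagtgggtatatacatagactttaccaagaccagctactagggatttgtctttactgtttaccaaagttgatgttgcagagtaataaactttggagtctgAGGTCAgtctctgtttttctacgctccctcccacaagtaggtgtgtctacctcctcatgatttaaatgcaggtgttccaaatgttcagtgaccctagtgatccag
Cyp4a8: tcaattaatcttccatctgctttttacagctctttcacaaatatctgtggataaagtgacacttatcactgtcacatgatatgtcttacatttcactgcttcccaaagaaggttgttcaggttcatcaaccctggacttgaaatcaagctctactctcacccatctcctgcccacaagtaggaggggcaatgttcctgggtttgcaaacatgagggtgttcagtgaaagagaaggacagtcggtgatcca
Between Cyp4a2 and Cyp4a3, 236 of 245 aligned bases were identical (96.3%), with 10 bases in gaps. Between Cyp4a2 and Cyp4a8 the share was 68.4%, with 44 bases in gaps, and between Cyp4a2 and Cyp2c23 it was 69.3%, with 96 bases in gaps. Searched on both strands, AGGTCA occurred 1 time each in Cyp4a2 and Cyp4a3, at 105 bases before the start, and not in the 250 bases of Cyp4a8 or Cyp2c23. It occurred in 14.1% of 33469 promoters of the same length. No exact match was found in these 4 promoters to the PPAR alpha type repeat of AGGTCA, with 1 base of any kind between the copies (0.0508% of all promoters) or to TATAAA (12.9%). A match is a description of the letters and not a bound site. Reads that align to more than 1 place were not counted to genes, so the counts of Cyp4a2 and Cyp4a3, which resemble each other and their pseudogenes, are uncertain in absolute size.

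Reads in genes ranged from 10757440 in replicate 3 to 43071223 in replicate 8, so that 1 read was worth 0.544 to 1.99 normalised counts, and each member had at least 3229 reads in every library. Markers of the cortex were present: 8 of 9 markers listed for segments S1 and S2 of the proximal tubule were in the table, with a summed level of 190843 ± 43828 (mean ± SD, n = 9). The summed level of 2 adrenal markers was 15.9 to 34.2. Replicate 1 stood apart in its tubule markers. Its summed level was the lowest for the S1 and S2 list, at 129693 against up to 261821 in replicate 8. It was the highest for collecting duct principal cells (21597.5), intercalated cells (16084.7) and the thick ascending limb (106067). Correlations in which replicate 1 is at one end are given with and without it.

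Cyp4a1, a fatty acid hydroxylase best known from the livers of rats given fibrates, averaged 22790 ± 4209 normalised counts (SD, n = 9). Replicates 1 to 9 held 15136, 25319, 20181, 23378, 19464, 25001, 27577, 28040 and 21017. Replicate 1 was the lowest and replicates 7 and 8 the highest, a 1.85-fold range. In a bulk sample, fewer cells of a type and less RNA per cell cannot be told apart, here and in every level below.

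Cyp4a2, a 20-HETE synthase of the rat kidney, averaged 152505 ± 24748 normalised counts. Its values in replicates 1 to 9 were 125164, 190986, 145943, 187745, 162708, 152594, 143969, 144853 and 118578. Replicates 2 and 4 were the highest and replicates 9 and 1 the lowest, a 1.61-fold range.

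Cyp4a3, the close relative of Cyp4a2, averaged 30373 ± 6026. From replicate 1 to replicate 9 the counts were 17298, 35831, 24660, 33323, 29354, 34947, 30286, 34960 and 32702. Replicate 1 was the lowest and replicate 3 the next, and the other 7 replicates lay within 29354 to 35831. The range was 2.07-fold with replicate 1, while the second highest replicate was 1.42-fold above the second lowest.

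Cyp4a8, a hydroxylase whose renal expression in rats is known to respond to androgens, averaged 10544 ± 5231 and had the widest range of the 6 genes at 3.21-fold. In order of replicate number the values were 15374, 19886, 6428, 15981, 10719, 7048, 6743, 6189 and 6529. Replicates 3, 6, 7, 8 and 9 lay close together, replicate 5 was higher, and replicates 1, 2 and 4 were higher still. Replicate 1, the lowest for Cyp4a1 and Cyp4a3, was among the 3 highest for Cyp4a8.

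**Figure D1:**
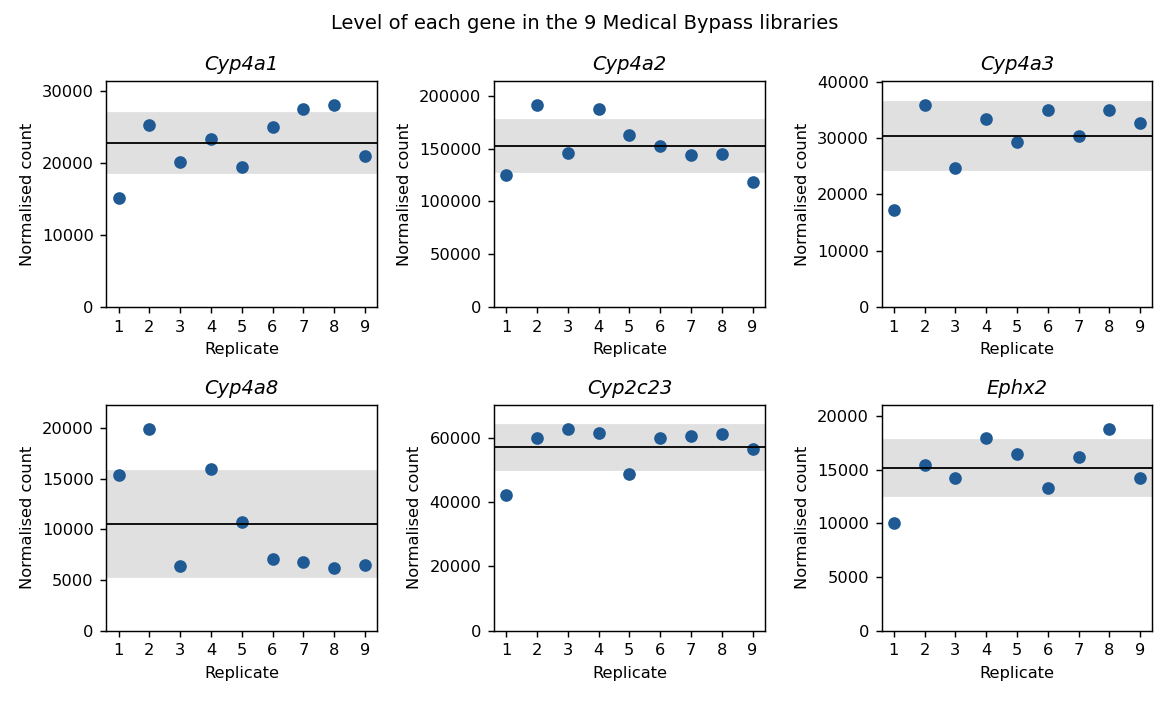
Normalised counts (vertical axes, each starting at 0) of the 6 genes in replicates 1 to 9 (horizontal axes), 1 point per library, with the mean as a line and 1 SD as the grey band. Replicate 1 is the lowest point for Cyp4a1, Cyp4a3, Cyp2c23 and Ephx2, whereas Cyp4a8 is high in replicates 1, 2, 4 and 5 and near 6189 to 7048 in the other 5.

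Cyp2c23, the epoxygenase, averaged 57094 ± 6938 and had the narrowest range, 1.49-fold. Its counts in replicates 1 to 9 were 42278, 59909, 62784, 61378, 48910, 60016, 60704, 61340 and 56532. Replicates 1 and 5 were low, and the other 7 lay between 56532 and 62784.

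Ephx2, the epoxide hydrolase, averaged 15173 ± 2638. In replicates 1 to 9 it stood at 10008, 15433, 14239, 17979, 16419, 13279, 16188, 18793 and 14216. Replicate 1 was the lowest and replicates 8 and 4 the highest, a 1.88-fold range.

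The mix of Cyp4a transcripts also differed between replicates. The 4 Cyp4a genes together made up 0.998% ± 0.159 (SD, n = 9) of all gene reads, from 0.833% in replicate 9 to 1.32% in replicate 2. Cyp4a2 took 70.5% ± 2.61 of these Cyp4a reads, a share that stayed within 66.3% and 74.0%. Cyp4a8 took 4.82% ± 2.15, from 2.89% in replicate 8 to 8.89% in replicate 1. These are shares of reads and depend on transcript length.

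Within a library, the ratio of Cyp4a2 to Cyp4a3 reads was 5.17 ± 1.09 and differed 2.00-fold between libraries, from 3.63 in replicate 9 to 7.24 in replicate 1. The ratio of Cyp4a3 to Cyp4a1 varied less, at 1.33 ± 0.162, a 1.42-fold range. The ratio of the epoxygenase Cyp2c23 to Cyp4a2 was 0.380 ± 0.0622, lowest in replicate 5 at 0.301 and highest in replicate 9 at 0.477. The hydrolase to epoxygenase ratio, Ephx2 to Cyp2c23, was 0.266 ± 0.0386, lowest in replicate 6 at 0.221 and highest in replicate 5 at 0.336. The balance of these transcripts thus differed up to 1.59-fold for the epoxygenase against Cyp4a2 and 1.52-fold for the hydrolase against the epoxygenase.

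Each member's variance between replicates was then set against genes of like level. On the log2 scale the variance of Cyp4a8 was 6.29 times the trend, a higher ratio than for 97.1% of the 13647 genes tested, those averaging 10 normalised counts or more. Cyp4a3 was at 1.42, Cyp4a1 at 1.03 and Ephx2 at 0.974 times the trend. Cyp4a2 at 0.573 and Cyp2c23 at 0.430 varied less than the trend. By limma with Benjamini-Hochberg adjustment, 0 of the 6 members and 0 of 13647 genes (0%) passed. The trend, and the spread of variances around it, were fitted to these same genes, so few could pass. The test therefore cannot decide whether Cyp4a8 varied unusually. For Cyp4a8 the unadjusted p was 0.0369 and the adjusted p 0.957, and 573 genes had an unadjusted p under 0.05.

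Which members moved together was asked over the 15 pairs, as correlations of log2 values across the 9 replicates. Positive correlations were found in 11 pairs. Cyp4a1 and Cyp4a3, neighbours in the gene cluster, had Pearson r = 0.849 (two-sided exact permutation p = 0.00600) and Spearman rho = 0.783 (exact p = 0.0172). Cyp4a1 and Cyp2c23 had r = 0.827 (exact p = 0.00810) and rho = 0.467 (exact p = 0.213). Cyp4a1 and Ephx2 had r = 0.739 (exact p = 0.0248) and rho = 0.50 (exact p = 0.178). These 3 pairs share the low value of Cyp4a1 in replicate 1.

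The pairs of Cyp4a3 with Cyp2c23 (r = 0.738, exact p = 0.0430, rho = 0.233, exact p = 0.552) and with Ephx2 (r = 0.758, exact p = 0.0350, rho = 0.383, exact p = 0.313) were also under 0.05 by r and not by rho. Thus 5 of 15 pairs had an exact p under 0.05 by r and 1 by rho, before adjustment. With p-values adjusted over all genes by limma, 0 of the 15 pairs passed with either gene as the reference. The lowest adjusted p was 0.438, for Cyp4a1 and for Cyp4a3 with Cyp2c23 as the reference.

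Most of these correlations rested on replicate 1. Without it, r was 0.607 for Cyp4a1 and Cyp4a3, 0.560 for Cyp4a1 and Cyp2c23, and 0.354 for Cyp4a1 and Ephx2. For Cyp4a3 it was 0.0798 with Cyp2c23 and 0.215 with Ephx2. For Cyp2c23 and Ephx2 it went from 0.660 (exact p = 0.0654) to -0.00141. With replicate 1 kept and each library's share of multiply aligned reads, described below, added to the fit, some values rose. There r was 0.939 for Cyp2c23 and Ephx2, 0.841 for Cyp4a1 and Ephx2, and 0.834 for Cyp4a3 and Ephx2. It fell slightly to 0.825 for Cyp4a1 and Cyp4a3, 0.810 for Cyp4a1 and Cyp2c23, and 0.720 for Cyp4a3 and Cyp2c23. Without the 2 replicates farthest from the median of Cyp4a1, which were replicates 1 and 5, r was 0.575 with Cyp4a3, 0.164 with Cyp2c23 and 0.526 with Ephx2.

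Cyp4a8 had negative r with each of these 4 genes. Its r was -0.310 with Cyp4a1, -0.174 with Cyp4a3, -0.382 with Cyp2c23 and -0.163 with Ephx2, with exact permutation p-values from 0.335 to 0.709. With Cyp4a2 its r was 0.566 (exact p = 0.117) and rho 0.583 (exact p = 0.108). Both genes were highest in replicates 2 and 4, and replicate 1, where Cyp4a8 was high and Cyp4a2 low, was the exception. Without replicate 1 that r was 0.881 (limma adjusted p = 0.329), and in replicates 4 to 9 alone it was 0.840. Without replicates 2 and 4, the farthest from the median of Cyp4a2, and with replicate 1 kept, it was -0.126. With replicates 2 and 4 left out, r of Cyp4a8 was -0.975 with Cyp2c23, over 7 replicates of which 1 and 5 were both the lowest for Cyp2c23 and the highest for Cyp4a8.

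**Figure D2:**
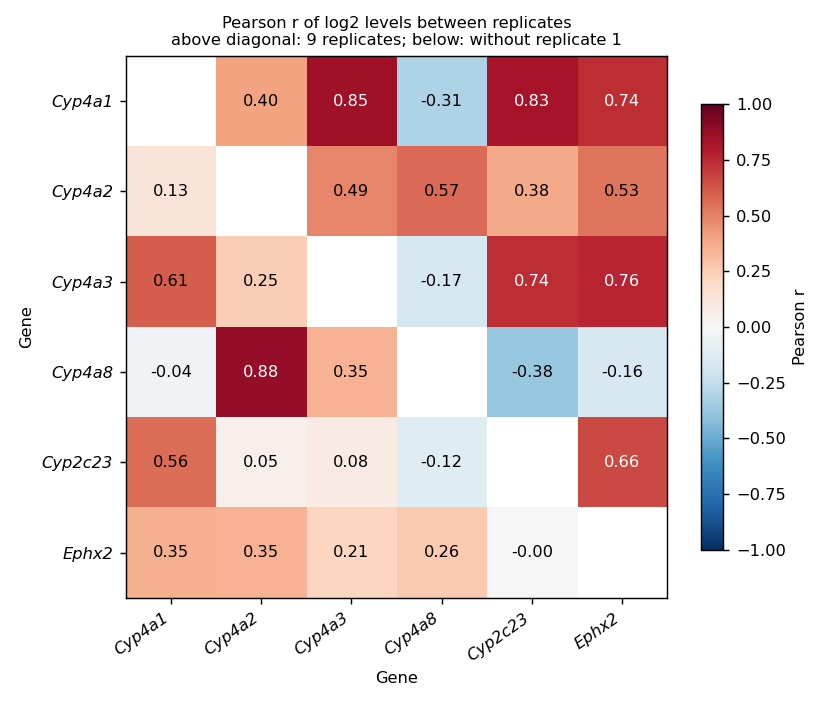
Pearson r of log2 levels for each pair of the 6 genes, over all 9 replicates above the diagonal and without replicate 1 below it, on a colour scale from -1 to 1. Cyp4a1, Cyp4a3, Cyp2c23 and Ephx2 form a block of r from 0.66 to 0.85 above the diagonal that falls to between 0.00 and 0.61 below it, and Cyp4a8 pairs with Cyp4a2 at 0.88 below it.

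The slope of every other gene on each member, per SD of that member's log2 level, was fitted with limma over 13646 genes. The share of genes with an adjusted p under 0.05 was 0% for Cyp4a1, Cyp4a2, Cyp4a3, Cyp2c23 and Ephx2, and 0.491% for Cyp4a8. The genes with an unadjusted p under 0.05 numbered 485 for Cyp4a1, 166 for Cyp4a2, 750 for Cyp4a3, 1501 for Cyp2c23 and 938 for Ephx2. On the recovered reads, edgeR's quasi-likelihood test called 0 genes for each of these 5 members. DESeq2 called 5, 0, 63, 90 and 72, or 0.15%, 0%, 0.522%, 0.73% and 0.528% of the genes to which it gave an adjusted p. Those genes numbered 3328 for Cyp4a1, 12058 for Cyp4a3, 12323 for Cyp2c23 and 13646 for Cyp4a2 and Ephx2.

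The genes most like each member are given as descriptions, since none of those named passed by limma. For Cyp4a1 they were Fmo1, a flavin monooxygenase (r = 0.983), Aco1, the cytosolic aconitase (0.982), Lypd6b (-0.952), the peroxisome proliferation factor Pex11a (0.945) and Siae (0.928). For Cyp4a3 they included Cubn, the albumin and vitamin receptor cubilin of the proximal tubule (0.958), Pygb (-0.956), Fadd (-0.954) and Myo7a (0.953). For Cyp4a2 they were Pde7b (-0.942), Kcne3 (-0.935), Irgq (-0.932), Fyn (-0.924) and the brush border peptidase gene Xpnpep2 (0.913). Kcne3 was near the floor, with a mean of 15.9 normalised counts, so its r rests on few reads. It was highest in replicate 1, at 27.8, and its r without that replicate is not given here. Replicate 1 was the lowest or the highest replicate for each gene named here for Cyp4a1 and Cyp4a3. Without it, r was 0.962 for Fmo1, 0.959 for Aco1, -0.905 for Lypd6b, 0.875 for Pex11a and 0.830 for Siae with Cyp4a1. With Cyp4a3 it was 0.909 for Cubn, -0.810 for Pygb, -0.801 for Fadd and 0.971 for Myo7a.

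For the epoxygenase Cyp2c23 the nearest genes were Nup35 (r = 0.966), Mpzl1 (-0.966), Mttp, which loads lipid onto lipoproteins (0.960), Ier3 (-0.945) and Cd47 (-0.943). Mttp stood at 401.0 in replicate 1 and 717 in replicate 5, against 1032 on average, the same 2 replicates that were low for Cyp2c23. For Ephx2 they included Krt80 (-0.966), Sephs2, of selenoprotein synthesis (0.958), Plxnb1 (-0.957) and Slc9a4 (-0.949). For each gene named for Cyp2c23 and Ephx2, too, replicate 1 was at one end of the range. Without it, r with Cyp2c23 was 0.90 for Nup35, -0.889 for Mpzl1, 0.879 for Mttp, -0.910 for Ier3 and -0.813 for Cd47. With Ephx2 it was -0.908 for Krt80, 0.878 for Sephs2, -0.876 for Plxnb1 and -0.856 for Slc9a4.

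Genes that PPAR alpha is known to induce were examined as a list of 28, of which 27 were in the table and 25 were tested. They include Ehhadh of peroxisomal fatty acid oxidation and Cpt1a, Cpt2 and Hadhb of the mitochondrial pathway. Their r was above 0 for 25 of 25 with Cyp4a1 (median 0.554), 25 with Cyp4a3 (0.654), 25 with Ephx2 (0.722), 24 with Cyp2c23 (0.561) and 24 with Cyp4a2 (0.249). Over all genes tested, the median r was between -0.0188 and 0.0169 for the 6 members, and 52.3% were above 0 for Cyp4a1. With Cyp4a8 only 2 of the 25 were above 0 and the median was -0.342. This list and those below were chosen with earlier results of these data known, so the contrast with all genes is a description.

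Within the list, Cyp4a1 ran closest with Pex11a (0.945, and 0.875 without replicate 1) and Vnn1, a pantetheinase (0.886, and 0.868 without). Cyp4a3 ran closest with Ehhadh (0.931, and 0.775 without replicate 1), the bifunctional enzyme of peroxisomal oxidation. Ephx2 ran closest with Eci2, an enoyl-CoA isomerase (0.90, and 0.829 without replicate 1). None of the 25 passed by limma or by edgeR for any of the 6 members. At an unadjusted p under 0.05, limma gave 8 for Cyp4a1, 0 for Cyp4a2, 12 for Cyp4a3, 0 for Cyp4a8, 8 for Cyp2c23 and 18 for Ephx2. Over all genes tested, the share at an unadjusted p under 0.05 was 3.55%, 1.22%, 5.5%, 3.52%, 11% and 6.87% for the members in that order. DESeq2 called 3 of the 25 for Cyp4a3, 2 for Cyp2c23, 1 for Ephx2 and 0 for the other 3 members, against 0.522%, 0.73% and 0.528% of all genes it tested for Cyp4a3, Cyp2c23 and Ephx2.

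Replicate 1 had the lowest summed level of these targets, 372105 against 582355 ± 88994 on average. Without replicate 1 the number above 0 was 17 for Cyp4a1 (median 0.279), 17 for Cyp4a3 (0.290), 18 for Ephx2 (0.579), 8 for Cyp2c23 (-0.101), 10 for Cyp4a2 (-0.0440) and 9 for Cyp4a8 (-0.140). Ephx2 thus kept the highest median of the 6 members without replicate 1, beside 0.112 for all genes. The median over all genes without replicate 1 is not given for the other members, so their counts have no yardstick here. The S1 and S2 proximal tubule markers ran the same way: 7 of 8 had r above 0 with each of Cyp4a1, Cyp4a3, Cyp2c23 and Ephx2, and 6, 5, 3 and 6 of 8 without replicate 1. All 3 principal cell markers had r below 0 with these 4 members, and 1, 3, 2 and 2 of 3 without replicate 1. The part of tubule cell content in these relations was not tested.

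**Figure D3:**
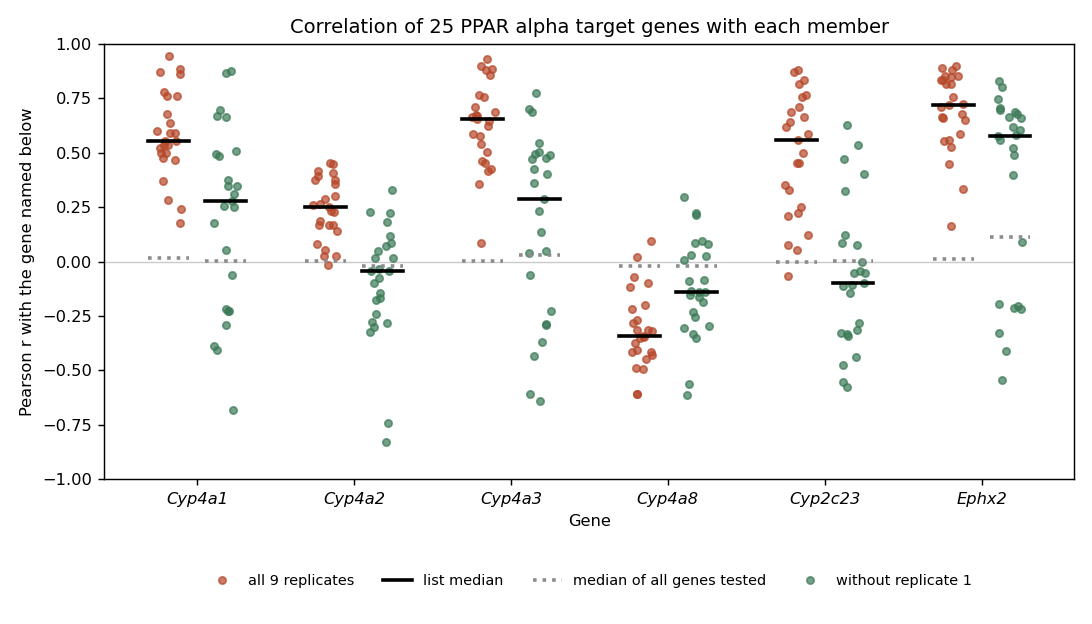
Pearson r (vertical axis) of each of 25 PPAR alpha target genes with each of the 6 genes (horizontal axis), over all 9 replicates in red and without replicate 1 in green, with the list median as a black line and the median of all genes tested as a dotted line. With replicate 1 left out the median goes from 0.554 to 0.279 for Cyp4a1, from 0.561 to -0.101 for Cyp2c23 and from 0.722 to 0.579 for Ephx2.

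Among nuclear receptors and their partners, Ppara, the PPAR alpha gene, is given although chosen after its values were seen. It averaged 383.1 ± 179.3, from 162.5 in replicate 1 to 687.0 in replicate 6, and its r with Cyp4a1 was 0.501, and 0.129 without replicate 1. With Ephx2 it had r = 0.0748, and -0.792 without replicate 1. Hnf4a, a liver and proximal tubule transcription factor, averaged 5415 ± 792 and had r = 0.822 with Cyp2c23 (limma adjusted p = 0.438), and 0.409 without replicate 1. Of the 9 genes tested in this list, 0 passed by limma, edgeR or DESeq2 for any member, and 2 each had an unadjusted limma p under 0.05 for Cyp4a3 and Cyp2c23, 1 for Cyp4a8 and 0 for the other 3. Over all genes tested, that share was 5.5% for Cyp4a3, 11% for Cyp2c23 and 3.52% for Cyp4a8.

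Cyp4a8 was the one member with genes that passed: 67 genes had an adjusted p under 0.05 by limma, all with a positive slope, and 481 had an unadjusted p under 0.05. The nearest was Rassf4, a Ras-association domain gene (r = 0.989, slope 1.02 ± 0.0966 SE in log2 units per SD of Cyp4a8, adjusted p = 0.00288). Rassf4 stood at 181.0, 261.8, 51.8, 205.6, 87.1, 62.2, 46.9, 47.3 and 41.7 in replicates 1 to 9. As for Cyp4a8, replicates 1, 2 and 4 were highest and replicate 5 next. Cacng5 (r = 0.965, slope 1.55 ± 0.150), Aadat, an aminotransferase of lysine and kynurenine breakdown (0.979, slope 0.71 ± 0.0739), Acss2, the cytosolic acetyl-CoA synthetase (0.977, slope 0.65 ± 0.0707), and Depdc1b (0.981, slope 0.97 ± 0.139) completed the nearest 5. Depdc1b was near the floor, with a mean of 11.7 normalised counts. It stood at 3.81 to 5.97 outside replicates 1, 2, 4 and 5, so its r rests on few reads.

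Kap, the kidney androgen-regulated protein of the proximal tubule, was among the 67, with r = 0.945, rho = 0.867 and a slope of 1.03 ± 0.122 SE (limma adjusted p = 0.00441). Kap stood at 28964, 39963, 8259, 41901, 23157, 7725, 14708, 7194 and 6713 in replicates 1 to 9. It was at 23157 or more in replicates 1, 2, 4 and 5 and at 14708 or less in the other 5, the replicates that were also the 5 lowest for Cyp4a8. Of the 6 androgen-linked genes listed, Kap passed by limma. Odc1, the ornithine decarboxylase that starts polyamine synthesis, had r = 0.953 (adjusted p = 0.0516), and Slco1a1, an organic anion carrier, had r = 0.829 (adjusted p = 0.114).

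Lower values were found for the beta-glucuronidase Gusb (r = 0.261) and for Hsd17b11 (-0.166). The median over the 6 genes was 0.545, against -0.0188 over all genes. The list was chosen with earlier results of these data known, so this and the shares that follow are descriptions and not independent support. By edgeR 2 of the 6 passed, against 0.535% of all genes tested, and by DESeq2 3, against 1.05%, all with a positive slope. With Cyp4a2 as the reference, the list median was 0.496 and 0 of 6 passed by limma, edgeR or DESeq2, with 3 at an unadjusted limma p under 0.05. That threshold was met by 1.22% of all genes tested with Cyp4a2. The labels state neither sex nor hormone status.

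Cyp2j4, an epoxygenase outside the 6 members, was the gene of the listed epoxygenases that passed with Cyp4a8, at r = 0.934 and a slope of 0.51 ± 0.0895 SE (limma adjusted p = 0.0310). Cyp2j4 stood at 418.5, 501.1, 246.8, 489.0, 268.7, 185.9, 257.6, 228.4 and 197.9 in replicates 1 to 9. It was highest in replicates 2, 4 and 1. Its call was lost without any 1 of replicates 1, 2, 4, 6, 7, 8 and 9, with adjusted p from 0.0530 to 0.261.

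Further genes among the 67, chosen after their values were seen, were Gclc (r = 0.953) and Gclm (0.915), the catalytic and modifier subunits that start glutathione synthesis. Others were the brush border peptidase Mep1b (0.929), the organic cation carrier Slc22a2 (0.912) and Cyp1a1 (0.921). Cyp1a1 was near the floor, at 1.09 to 2.00 normalised counts in replicates 7, 8 and 9. It reached 61.7, 42.7 and 29.0 in replicates 1, 2 and 4, so its r rests on few reads. Slc7a13, a cystine and acidic amino acid carrier of the S3 segment, was also among the 67 (r = 0.905, limma adjusted p = 0.0103). It was lowest in replicate 8, at 689.7, and highest in replicate 4, at 11449. Its partner Slc3a1, also chosen after its values were seen, had r = 0.901 and did not pass (limma adjusted p = 0.117). Of 5 tested S3 markers, 3 had r above 0 with Cyp4a8 and 1 passed, against 0.491% of all genes. Of 8 S1 and S2 markers 1 had r above 0. The markers that follow were chosen after their values were seen. Without replicate 1, r was above 0 for Slc22a7 (0.723), Cubn (0.280) and Slc34a1 (0.103) of the S1 and S2 list. It was below 0 for the rest of that list. Of the S3 list only Slc27a2 was then below 0 (-0.292). Over all 9 replicates, the tested thick ascending limb markers also had r above 0: Umod (0.772), Slc12a1 (0.584) and Cldn10 (0.348). The part of tubule cell content in the relation of Cyp4a8 to these genes was not tested.

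**Figure D4:**
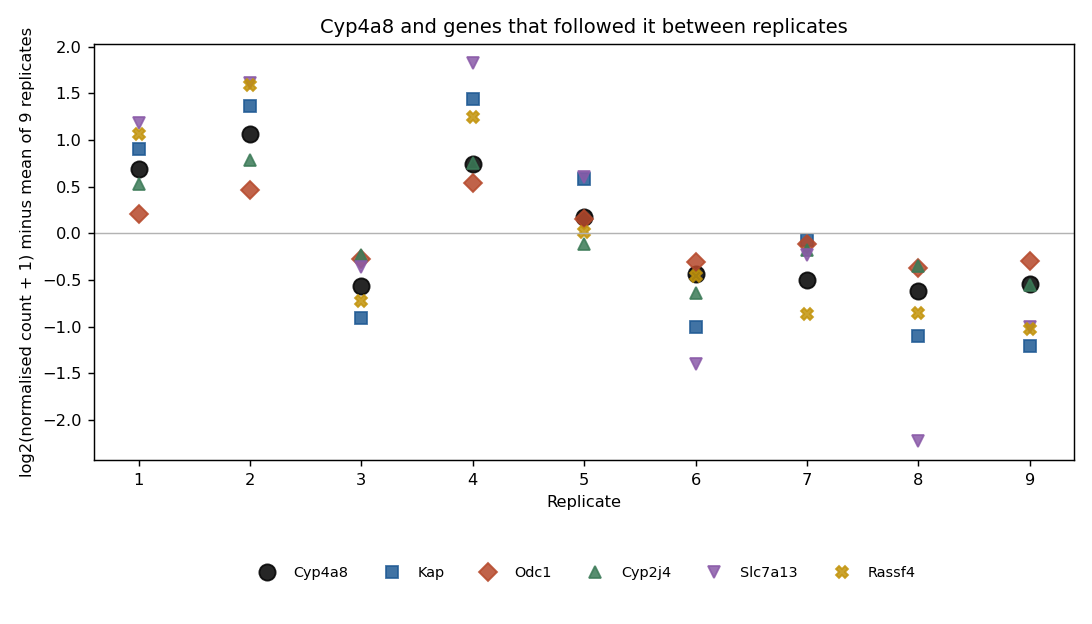
Level of Cyp4a8 (black circles) and of Kap, Odc1, Cyp2j4, Slc7a13 and Rassf4 in replicates 1 to 9 (horizontal axis), as log2 of the normalised count plus 1 minus the gene's mean over the 9 replicates (vertical axis). The genes shown are above their means in replicates 1, 2 and 4 and below in replicates 3, 6, 7, 8 and 9. In replicate 5, Cyp2j4 is below its mean and the other 5 are at or above theirs.

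The number of genes called with Cyp4a8 depended on which replicates were kept. It was 17 without replicate 4, 29 without replicate 1, 29 without replicate 2, and 44 without replicate 8. A fit on ranks called 0 of the 67 (286 genes at an unadjusted p under 0.05), and replicates 4 to 9 alone called 0 (223 at an unadjusted p under 0.05), where 65 of the 67 slopes kept their sign. edgeR called 73 genes, 65 of them among the 67, and DESeq2 called 143, with all 67 among them. The level of Cyp4a8 was close in 5 of the 9 replicates, so the spread behind these slopes comes mainly from the other 4.

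The enzymes that work beside the members were described from further lists. Por, the reductase that supplies electrons to these cytochromes P450, averaged 10342 ± 1973 and ran from 6758 in replicate 1 to 13173 in replicate 5. Its r was 0.821 with Ephx2 (0.538 without replicate 1), 0.667 with Cyp4a3 (0.00460 without) and 0.633 with Cyp4a1 (0.140 without). Pgrmc1, a haem-binding P450 partner, averaged 15812 ± 1671 and had r = 0.926 with Ephx2 (0.795 without replicate 1), 0.895 with Cyp4a3 (0.674 without) and 0.888 with Cyp4a1 (0.727 without). Of 6 electron partners tested, 0 passed by limma, edgeR or DESeq2 for any member, and up to 3, for Cyp4a3, had an unadjusted limma p under 0.05. Over all genes tested, that share was 5.5% for Cyp4a3.

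Among the other arachidonate epoxygenases and hydroxylases, Cyp2e1 averaged 38421 ± 7622 and Cyp4f1 7268 ± 1685. Chosen after their values were seen, Cyp2c6v1, Cyp2c7 and Cyp2c22 had 0 reads in all 9 libraries, and Cyp2c24 averaged 24.1 ± 14.1. Cyp2e1 had r = 0.890 with Cyp4a1 (0.765 without replicate 1) and 0.842 with Cyp2c23 (0.635 without). Ephx1, the microsomal epoxide hydrolase, averaged 13986 ± 2933 and had r = 0.646 with Ephx2. Aldh3a2, a fatty aldehyde dehydrogenase of 20-HETE oxidation, averaged 1853 ± 165 and had r = 0.803 with Cyp4a1 (0.876 without replicate 1). Gpr75, a receptor for 20-HETE also chosen after its values were seen, stood at 4.16 ± 2.48, below the mean of 10 needed for testing. The lists of arachidonate release (10 tested), the lipoxygenase branch (7), the effectors of 20-HETE and epoxides (6) and glucocorticoid and clock-linked genes (7) had 0 genes past limma, edgeR or DESeq2 with any member, and up to 3 at an unadjusted limma p under 0.05. Counts of 3 included the clock-linked list with Cyp4a3, against 5.5% of all genes tested. They also included the arachidonate release list with Cyp4a1, against 3.55%. For the other members that share ran from 1.22% for Cyp4a2 to 11% for Cyp2c23. Over the 12 pathway lists, Kap and Cyp2j4 were the 2 genes past limma, both with Cyp4a8.

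The members were last set against 3 measures of the libraries in 18 relations. Multiply aligned reads, those that fit more than 1 place, ran from 14.9% in replicate 2 to 22.1% in replicate 5, and 35% of the 13647 genes had a slope on this share by limma. Of the 6 members 0 passed, with Cyp2c23 nearest at r = -0.669 (exact permutation p = 0.0522, limma adjusted p = 0.204) and rho = -0.317 (exact p = 0.410). Replicates 1 and 5, the lowest for Cyp2c23, had shares of 19.2% and 22.1%, and with these 2, the farthest from the median share, left out r was 0.290. When libraries were scaled to the same total instead, the r of Cyp2c23 with this share was -0.921. The share of reads outside genes had 29.1% of genes called and 0 of 6 members, and library size had 0% called and 0 of 6. For library size, Ephx2 had the lowest exact permutation p, 0.0369 for rho = 0.717, against 0.131 for r = 0.543 (limma adjusted p = 0.415).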

How the data were processed

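Stranded mRNA libraries had been made from flash-frozen kidney cortex, per the labels' protocols. Per the submitters' processing notes, FastQC 0.11.2, MultiQC 0.9, HTSeq 0.6.1p1, DESeq2 and the build Rnor_5.0 were used, with the aligner not given in the sources used here. Each deposited signal is a read count that the authors divided by a size factor per library, with no correction for length. Whole reads were recovered from it: in each library 99.988% to 99.994% of values were whole to within 0.1 read. Of 18423 rows, 3 that count reads outside genes, in more than 1 gene or at more than 1 place were left out of the tests and used to describe libraries.

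The log2 of each value plus 1 was used, for the 13647 genes averaging 10 or more. Slopes and variances were fitted with limma 3.58.1 (trended, robust) in R 4.3.3 over all genes, with Benjamini-Hochberg adjustment and a threshold of 0.05, in the 1 group of 9 libraries. The slopes were repeated on the recovered reads with edgeR 4.0.16 and DESeq2 1.42.0. Pairs of members were tested with exact permutation tests (scipy 1.17.1). The scripts were tested on simulated data. The members, the 12 pathway lists (107 of 126 genes matched) and the 13 cell type lists (50 of 66 matched) were chosen with earlier results of these data known. Named genes were the members, the 5 genes nearest to each member by r, the 2 most abundant of each list and the 1 nearest to Cyp4a1, and any gene of the PPAR alpha and androgen-linked lists; others are said to be chosen after their values were seen, and some that the rule names are not reported here. Alternatives covered pseudocounts of 0.5 and 5, no filter or a mean of 100.0, scaling by TMM or to equal totals, multiply aligned reads as a covariate and each replicate left out; ranks and replicates 4 to 9 alone were added after the data were seen.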

Additional observations from a re-analysis of the deposited data

Results flagged for a closer look

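None of the 6 members had a replicate far from the others by Dixon's test at the 95% level. Of 74 groups of 9 values tested, 10 had such a replicate, and in all 10 it was replicate 1. Chance gives about 1 in 20 for independent groups, but these share the same 9 libraries, and 6 of the 10 are genes chosen for a high r with a member that is lowest in replicate 1, so that rate is no yardstick here. Replicate 1 had the lowest summed level of the PPAR alpha target genes, 372105 against 548757 in the next lowest, and of the genes of arachidonate release and re-esterification, 29136 against 40739. It had the highest summed level of principal cell markers, 21597.5 against 12874.5 in the next, and of intercalated cell markers, 16084.7 against 10746.9. Among the genes nearest to Cyp4a3, replicate 1 was far above the others for Pygb (2388) and Fadd (514.2). Among those nearest to Cyp2c23 it was far above for Cd47 (1194), and among those nearest to Ephx2 for Krt80 (379.4), Plxnb1 (753.7) and Slc9a4 (290.0). These 6 genes all had negative r with the member they were nearest to, and replicate 1 was the lowest replicate of each of those members. The part of cell content in these values was not tested.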

How the results depend on the processing

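No paired analysis was possible because all 9 libraries belong to 1 group. Under each alternative run, each member's mean level moved by less than 1 SD between replicates, and the count of genes past the variance test was 0. Neither is a strong check. Leaving out 1 of 9 values cannot move a mean by 1 SD, and the other scalings are centred differently. The variance trend was fitted to the same genes that it tested each time. With DESeq2 the number of genes with a slope was 5 for Cyp4a1, 63 for Cyp4a3, 143 for Cyp4a8, 90 for Cyp2c23 and 72 for Ephx2, and with the multiply aligned share as a covariate it was 244 for Cyp4a1 (146 positive, 98 negative) and 123 for Cyp4a8. For Cyp4a8 it was 0 on ranks, 0 in replicates 4 to 9 alone, and 17 to 69 with 1 replicate left out. Signs of r turned in replicates 4 to 9 alone for Cyp4a1 with Cyp4a2 (-0.0188), Cyp4a2 with Cyp4a3 (-0.0459), Cyp4a3 with Ephx2 (-0.0632) and Cyp4a8 with Ephx2 (0.367), and on ranks for Cyp4a3 with Cyp4a8 (0.117). With 1 replicate left out r ran from -0.00141 to 0.826 for Cyp2c23 with Ephx2, -0.455 to 0.347 for Cyp4a3 with Cyp4a8, and -0.373 to 0.262 for Cyp4a8 with Ephx2.

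Of the relations to library measures, those that changed sign or side of the threshold follow. On ranks, those with reads outside genes were -0.117 for Cyp4a1, 0.10 for Cyp4a2, 0.0667 for Cyp4a3 and 0.0833 for Cyp4a8; Cyp4a8 had -0.05 with multiply aligned reads, and Ephx2 had 0.717 with library size. With the same total per library, which shifted libraries over a range of 0.30 in log2, those with reads outside genes were 0.152 for Cyp4a2, 0.153 for Cyp4a3, 0.0982 for Cyp4a8 and 0.720 for Cyp2c23; Cyp2c23 had -0.159 with library size and -0.921 with multiply aligned reads, and Ephx2 -0.127. With 1 replicate left out, relations to library size ran from -0.201 to 0.413 for Cyp2c23, 0.489 to 0.717 for Cyp4a3 and -0.0388 to 0.464 for Cyp4a8. Those to multiply aligned reads ran from -0.753 to -0.606 for Cyp2c23, -0.336 to 0.173 for Cyp4a2 and -0.147 to 0.553 for Ephx2. Those to reads outside genes ran from -0.112 to 0.779 for Cyp2c23, -0.432 to 0.223 for Cyp4a1, -0.380 to 0.00840 for Cyp4a2, -0.192 to 0.102 for Cyp4a3 and -0.211 to 0.177 for Cyp4a8. The cause of these changes was not tested. Each member had at least 3229 reads in every library.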
